A study of Mus musculus with 2 samples.

Results

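The clustered histone genes were compared between splenic and lung Tregs of BLM-injured mice. They were the 68 gene symbols beginning with Hist1h, Hist2h, Hist3h or Hist4h among the 24346 symbols listed in both libraries, and none was chosen by its values. GFP+CD4+ cells were sorted on day 15 after intratracheal BLM from spleen and from lung of FDG mice, which carry Foxp3-DTR-GFP, so that GFP marks cells expressing Foxp3, the transcription factor of Tregs. Both groups therefore had the same genotype, the same treatment and the same day, and differed in tissue. There was 1 library per tissue, each made from pooled cells of several mice, so no spread between mice is available, and every ratio below compares those 2 libraries without a test. Values are FPKM, the sequenced fragments of a gene scaled to its length and to the depth of the library, so that levels of different genes can be compared per length.

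Histones are the proteins that DNA is wrapped around. H2A, H2B, H3 and H4 form the core of the nucleosome and H1 binds the linker DNA. The clustered genes encode the replication-dependent histones, which dividing cells make in S phase to package new DNA. Their mRNAs are as a rule not polyadenylated: they end in a short stem-loop that is bound by Slbp, and some of the genes also give polyadenylated transcripts when the end is formed further downstream. The cDNA kit used here is primed from poly(A) tails.

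The 68 genes fell into 6 H1, 18 H2A, 19 H2B, 12 H3 and 13 H4 genes. In the GENCODE M21 annotation of GRCm38, the assembly also called mm10, the 54 Hist1 genes lay on chromosome 13 between 21715763 and 23934851. The 10 Hist2 genes lay on chromosome 3 between 96219865 and 96270132, the 3 Hist3 genes on chromosome 11 between 58948920 and 58956830, and the 1 Hist4 gene on chromosome 6 between 136801553 and 136804415. Of all 68 gene models, 63 had a single exon, and those with more than 1 exon were Hist1h2bc, Hist1h2be, Hist1h2bp, Hist1h2bq and Hist1h2br.

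The stem-loop is shown first because it marks where the replication-dependent mRNA ends. It was searched as 16 bases in the longest annotated transcript taken for each gene and was found in 41 of the 68 genes, in 5 forms. A gene without a site here may still have one. Several of those models end at the stop codon, as for Hist1h2ai, Hist1h3h and Hist1h4k, and cannot hold it. The form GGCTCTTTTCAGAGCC was held by 25 genes of the classes H1, H2A, H2B and H3, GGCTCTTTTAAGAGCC by 6 genes of H1, H2B and H3, and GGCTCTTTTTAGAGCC by Hist2h2ac alone. The H4 genes had their own 2 forms, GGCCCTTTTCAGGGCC in 7 genes and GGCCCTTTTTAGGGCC in Hist1h4i and Hist2h4. The sites of 6 members with a high level or a large ratio are given below from the GENCODE transcripts, 5′ to 3′, with the stem-loop in capitals and the neighbouring bases in lower case.
Hist1h1c: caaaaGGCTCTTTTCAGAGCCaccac
Hist3h2a: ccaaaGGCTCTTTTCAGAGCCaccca
Hist1h2bk: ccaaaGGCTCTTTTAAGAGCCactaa
Hist1h3e: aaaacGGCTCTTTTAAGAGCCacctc
Hist1h4d: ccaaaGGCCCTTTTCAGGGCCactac
Hist1h4i: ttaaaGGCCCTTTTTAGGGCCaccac
These sites lay on chromosome 13 at 23739512-23739527 for Hist1h1c, 22036300-22036315 for Hist1h2bk, 23561903-23561918 for Hist1h3e, 23581950-23581965 for Hist1h4d and 22040966-22040981 for Hist1h4i, and on chromosome 11 at 58955172-58955187 for Hist3h2a.

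As a group the clustered histone genes had low FPKM in these libraries. Poly(A) priming may miss mRNAs that end at the stem-loop, so low FPKM need not mean low expression. In spleen 36 were above 0 and in lung 37, with 30 above 0 in both libraries, and 25 (36.8%) were listed at 0 in both, close to the 34.6% of all listed genes. The median of the members' mean FPKM was 0.435, and 28 genes had a mean of at least 1 FPKM. Their values added up to 167 FPKM in spleen and to 315 FPKM in lung. The sum was 1.88-fold higher in lung, with a 95% interval of 1.70 to 2.1 for counting error, and 1.40-fold higher when both libraries were rescaled to the same total. All intervals here cover counting error only, since PCR copies are counted as separate reads and mice were pooled. In bulk samples, fewer cells of a type and less RNA per cell cannot be told apart.

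The plot of each gene's FPKM in both libraries shows that most of this sum came from a few genes. The 5 highest, Hist1h2bc, Hist3h2a, Hist1h4d, Hist1h4c and Hist1h1c, held 53.5% of the members' FPKM in spleen and 56.2% in lung.

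**Figure D1:**
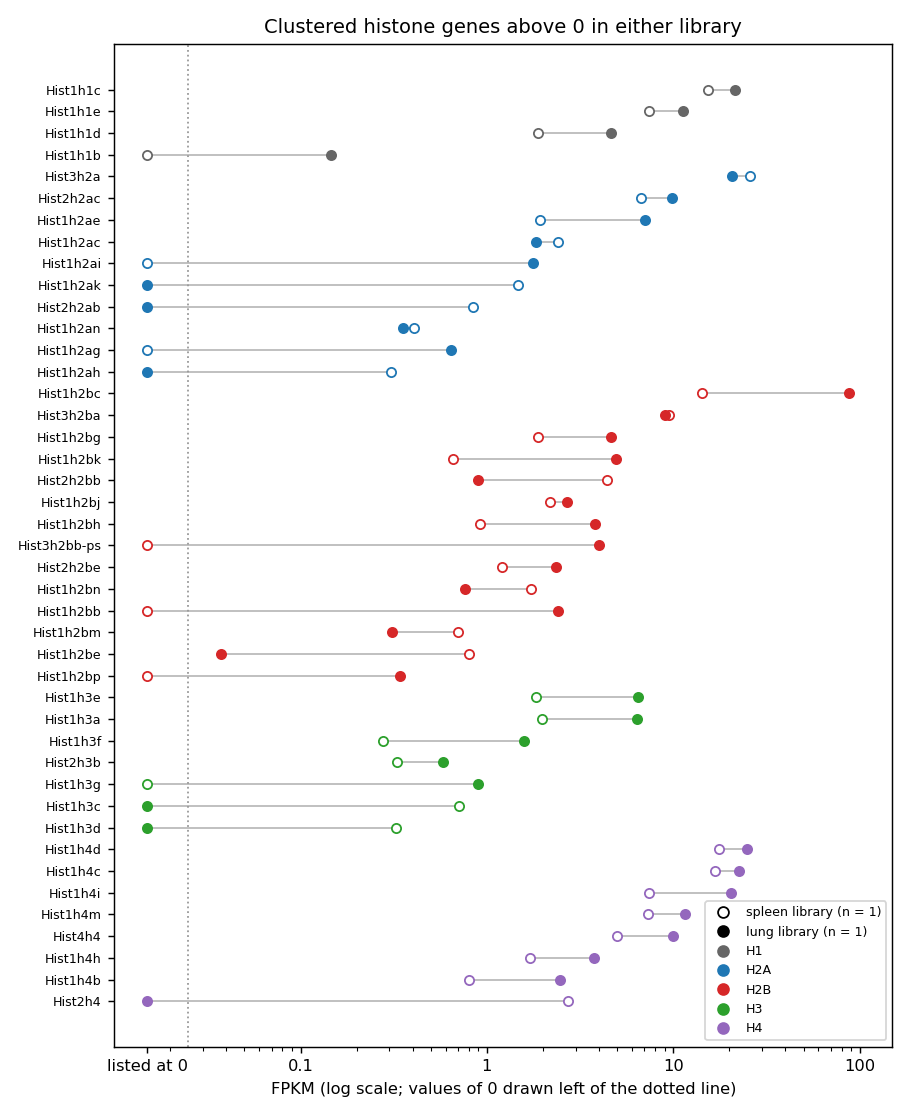
FPKM (log scale) of the 43 clustered histone genes above 0 in the spleen library (open circles) or the lung library (filled circles), coloured by histone class, with values of 0 drawn left of the dotted line. Hist1h2bc, an H2B gene, has the highest lung value at 87.9 FPKM against 14.2 FPKM in spleen.

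Counts past a fold were taken after setting values under 0.1 FPKM to 0.1. More than 2-fold higher in lung were 18 of 68 members (26.5%), where 11.0% of all listed genes were, and more than 2-fold lower were 10 members (14.7%), where 11.7% of all listed genes were. The median log2 ratio of lung to spleen was 0.00 over the members and 0.00 over all listed genes, since many of both were at 0 in both libraries. More than 20-fold higher, the limit that the study used, were Hist1h2bb and Hist3h2bb-ps (2.94%, against 1.62% of all listed genes), and more than 20-fold lower was Hist2h4 (1.47%, against 1.17%). These 3 genes were at 0 in the other library and rested on few reads. Above 0 in lung only were 7 members, Hist1h1b, Hist1h2ag, Hist1h2ai, Hist1h2bb, Hist1h2bp, Hist1h3g and Hist3h2bb-ps, at 0.145 to 3.97 FPKM. Above 0 in spleen only were 6 members, Hist1h2ah, Hist1h2ak, Hist1h3c, Hist1h3d, Hist2h2ab and Hist2h4, at 0.307 to 2.74 FPKM. Of all 24346 listed genes, 14804 were above 0 in spleen, 13708 in lung and 12601 in both. Genes above 0 in a single library were thus common, and more of them were in spleen, whereas the members were nearly even, with 7 in lung and 6 in spleen.

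Among the 30 members above 0 in both libraries, 12 were more than 2-fold higher in lung, where 16.4% of the 12601 genes above 0 in both were, and 4 were more than 2-fold lower (13.3%), where 13.8% of such genes were. The 12 were Hist1h1d, Hist1h2ae, Hist1h2bc, Hist1h2bg, Hist1h2bh, Hist1h2bk, Hist1h3a, Hist1h3e, Hist1h3f, Hist1h4b, Hist1h4h and Hist1h4i, all of the Hist1 group. The 4 were Hist1h2be, Hist1h2bm, Hist1h2bn and Hist2h2bb, all H2B genes. The median log2 ratio was 0.74 over these 30 members and 0.02 over the 12601 genes. Rescaling both libraries to the same total (TPM) shifted the log2 ratio by -0.43 where neither value was raised to the floor. Of the 68 members, 15 were then more than 2-fold higher in lung and 10 more than 2-fold lower. The share of all listed genes at that scaling is not available, so these 2 counts cannot be set against it. Rescaling lung to a median ratio of 1 or to the upper quartile of spleen shifted the log2 ratio by -0.016 and -0.010.

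**Figure D2:**
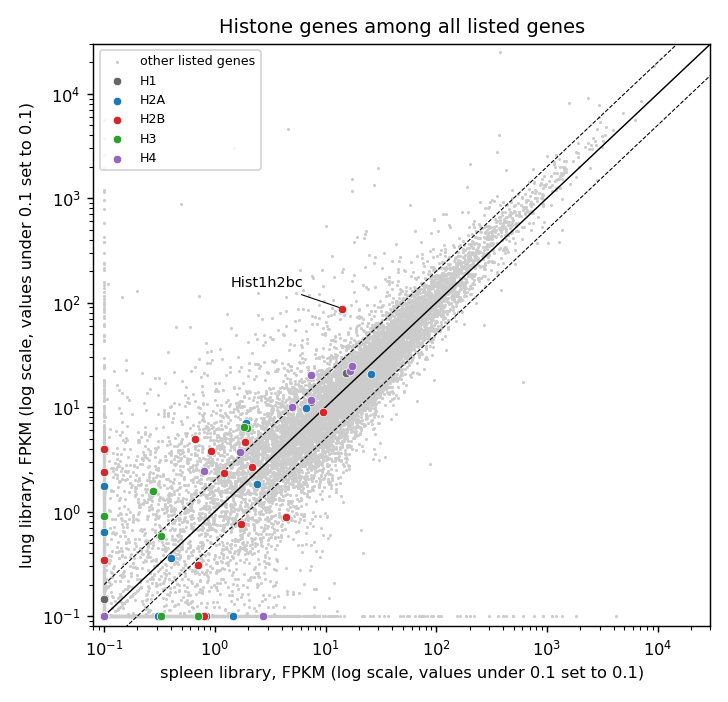
Lung against spleen FPKM (both axes on a log scale, values under 0.1 set to 0.1) for all 24346 listed genes in grey and the 68 clustered histone genes coloured by class, with a solid line at equal values and dashed lines at 2-fold. Of the histone genes, 18 lie above the upper dashed line and 10 below the lower one, and Hist1h2bc stands highest.

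By class, the FPKM were summed because near-identical copies share reads, so that a sum depends less on how such reads were divided. H1 genes had sums of 24.6 FPKM for spleen and 37.4 FPKM for lung (1.52-fold, interval 1.23 to 1.88). H4 genes summed to 59.2 and 95.5 FPKM (1.61-fold, interval 1.29 to 2.02). H3 genes had the lowest sums, 5.45 and 15.9 FPKM (2.92-fold, interval 1.81 to 4.72). At the deposited scale these 3 classes were thus higher in lung by more than counting error. Rescaled to the same total, which multiplies each ratio by 0.741, they stayed above 1, though at 1.13 for H1 and 1.20 for H4. The intervals of H1 and H4 then span 1, and that of H3 does not.

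The H2A genes differed from that. Their sums were 39.8 FPKM for spleen and 42.1 FPKM for lung, a ratio of 1.06 whose interval of 0.831 to 1.35 spans 1 and which fell below 1, to 0.785, when rescaled to the same total. H2B genes summed to 38.2 and 124 FPKM (3.25-fold, interval 2.73 to 3.86), the highest ratio of the 5 classes. Without Hist1h2bc the H2B sums were 24.0 and 36.2 FPKM and the ratio was 1.51 (interval 1.13 to 2.02), and the ratio of all members was 1.48 (interval 1.31 to 1.68).

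**Figure D3:**
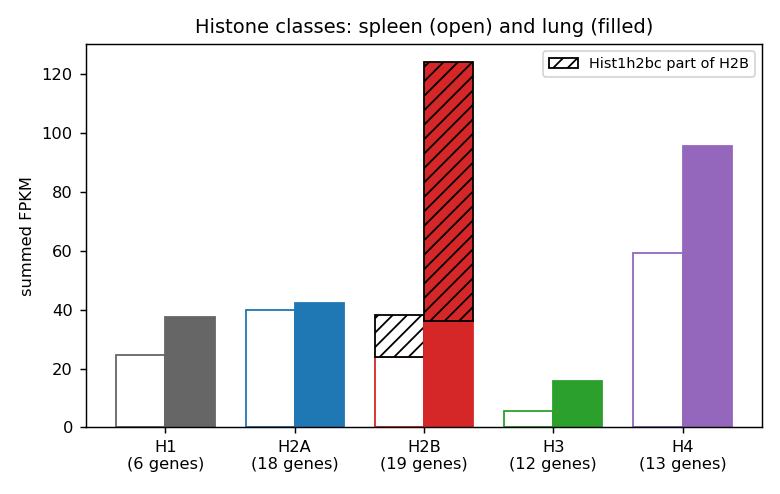
Summed FPKM of each histone class in the spleen library (open bars) and the lung library (filled bars), 1 library each, with the part of Hist1h2bc hatched. H2B has the highest sum in lung, 124 FPKM with Hist1h2bc and 36.2 FPKM without it, and H2A is nearly equal in the 2 libraries at 39.8 and 42.1 FPKM.

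By chromosomal group, the Hist1 genes had sums of 111 FPKM for spleen and 258 FPKM for lung (2.33-fold, interval 2.05 to 2.64). The Hist2 genes summed to 16.2 and 13.6 FPKM (0.843, interval 0.562 to 1.26), and the Hist3 genes to 35.2 and 33.7 FPKM (0.956, interval 0.732 to 1.25). The Hist4 group is the single gene Hist4h4, with 5.01 and 9.94 FPKM (1.98-fold, interval 0.971 to 4.29). Of the 4 groups, Hist1 alone had an interval that lay well above 1, and that of Hist4 reached down to about 1.

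The linker histone H1 was represented mainly by Hist1h1c, with 15.3 FPKM in spleen and 21.4 FPKM in lung. It was 1.40-fold higher in lung, with about 82.0 and 129.9 reads and an interval of 1.05 to 1.86, but only 1.04-fold when rescaled to the same total. Hist1h1e had 7.40 and 11.3 FPKM (1.52-fold, interval 1.04 to 2.26), and Hist1h1d 1.87 and 4.64 FPKM (2.48-fold, interval 1.21 to 5.47). The testis-specific gene Hist1h1t and Hist1h1a were at 0 in both libraries.

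In the core class H2A, Hist3h2a had the highest level, with 25.7 FPKM in spleen and 20.7 FPKM in lung (0.804, interval 0.577 to 1.12). Without it, the other H2A genes were together 1.53-fold higher in lung. Its annotated transcript shared 100% of its 75-base windows with other genes, among them Trim17, which overlaps it, so its level is uncertain. Hist2h2ac had 6.68 and 9.81 FPKM (1.47-fold, interval 0.792 to 2.80). Hist1h2ae had 1.93 and 7.04 FPKM and was 3.65-fold higher in lung, by about 6.99 and 29.0 reads (interval 1.56 to 9.87). Hist2h2ab was listed at 0.839 FPKM in spleen and at 0 in lung, by about 2.28 reads.

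In the core class H2B, Hist1h2bc was at 14.2 FPKM in spleen and 87.9 FPKM in lung. It was 6.19-fold higher in lung, with about 139.6 and 981 reads (interval 5.18 to 7.44), and 4.59-fold higher when rescaled to the same total. It was the best covered of the histone genes. It stood at 8.50% of the members' FPKM in spleen and 27.9% in lung. Its model spans chr13:23684199-23692908 in 2 exons of 1156 bases in all, so it differs from the usual single-exon histone gene. No stem-loop was found in this model, and any other transcript of the gene was not searched.

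The other H2B genes were at a lower level. Hist3h2ba had 9.50 FPKM in spleen and 9.04 FPKM in lung (0.951, interval 0.531 to 1.71). Hist1h2bk had 0.661 and 4.95 FPKM, about 2 and 17 reads, a ratio of 7.49 with an interval of 1.78 to 66.9. Hist1h2bh had 0.922 and 3.79 FPKM, about 3 and 14 reads, a ratio of 4.11 with an interval of 1.15 to 22.3. The intervals of both lie above 1 but are wide, and that of Hist1h2bh spans 1 when rescaled to the same total.

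Hist1h2bg had 1.88 FPKM in spleen and 4.65 FPKM in lung (2.47-fold, interval 0.839 to 8.75). Hist1h2bb was at 0 in spleen and 2.41 FPKM in lung, about 7.99 reads, which is at least 2.35-fold higher in lung if 3 reads are taken as the limit for a library at 0. Hist3h2bb-ps, named as a pseudogene, was at 0 and 3.97 FPKM, about 12 reads, at least 3.52-fold higher by the same limit.

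Lower in lung were 2 further H2B genes of the named set. Hist2h2bb had 4.4 FPKM in spleen and 0.895 FPKM in lung, about 13 and 3 reads, and was 4.92-fold higher in spleen (interval 1.35 to 26.9). All 75-base windows of its transcript lie also in the overlapping genes Gm20628 and Gm42743, so this value is uncertain. Hist1h2bn had 1.73 and 0.762 FPKM, about 4.84 and 2.42 reads, a ratio of 0.440 with an interval of 0.0537 to 2.51. Hist1h2be, chosen after its values were seen, had 0.803 FPKM in spleen and 0.0373 FPKM in lung, about 19 reads against 1 read, for which the interval of lung over spleen was 0.00114 to 0.292.

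In the core class H3, Hist1h3e had 1.84 FPKM in spleen and 6.49 FPKM in lung, about 13.4 and 53.7 reads (3.52-fold higher in lung, interval 1.91 to 6.97). Hist1h3a had 1.97 and 6.36 FPKM (3.23-fold, interval 1.27 to 9.74). Hist1h3f had 0.278 and 1.59 FPKM, about 2 and 13 reads (ratio 5.72, interval 1.30 to 52.3). At the deposited scale all 3 were higher in lung by more than counting error, from a low level in spleen. Rescaled to the same total, only the interval of Hist1h3e still lies above 1.

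In the core class H4, all genes encode the same protein or nearly so. Hist1h4d had 17.5 FPKM in spleen and 24.9 FPKM in lung (1.43-fold, interval 0.922 to 2.24). Hist1h4c had 16.7 and 22.4 FPKM (1.34-fold, interval 0.820 to 2.21), but 0.991 when rescaled to the same total, so its direction turned with that scaling. Its ratio was 1.32 with lung rescaled to a median ratio of 1 and 1.33 with lung rescaled to the upper quartile of spleen. Hist1h4i had 7.42 FPKM in spleen and 20.5 FPKM in lung, about 15.1 and 47.2 reads, and was 2.76-fold higher in lung (interval 1.52 to 5.30). Hist2h4 had 2.74 FPKM in spleen, about 5.05 reads, and 0 in lung, at least 1.91-fold lower by the limit of 3 reads. Hist4h4 is described above with its group. Of these genes, only Hist1h4i had an interval that lay apart from 1 without a library at 0.

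The level of a histone gene was set beside the end of its annotated transcript. In RefSeq the models of 39 of 40 members with a stem-loop ended 4 to 8 bases after it, whereas GENCODE models ran a median of 151 bases past it and 21 ran more than 100 bases past. The FPKM matched whole reads far more often with RefSeq lengths: 76.5% of the single-exon members above 0 in spleen and 75.8% in lung came within 0.1 of a whole number, against 44.1% and 42.4% with GENCODE lengths. Reads beyond the stem-loop would thus lie outside models of that length.

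Of the 21 genes whose GENCODE model ran more than 100 bases past the stem-loop, 18 were above 0 and 15 had a mean of at least 1 FPKM, with a median of 3.27 FPKM. Of the 20 genes whose model ended within 100 bases, 10 were above 0 and 7 had a mean of at least 1 FPKM, with a median of 0.161 FPKM. The 27 genes with no stem-loop found in the model had a median of 0.154 FPKM, and 6 had a mean of at least 1 FPKM, among them Hist1h2bc. Several of these models end at the stop codon, so the genes need not lack a stem-loop. A longer model thus went with a higher level in these 2 libraries.

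The polyadenylation signal AATAAA followed the stem-loop in 12 of the 21 longer models and in 0 of the 20 shorter ones. The split by length nearly fixes this count, since the signals lay 123 to 1653 bases past the stem-loop and the shorter models ended at most 74 bases past it. Hist1h1c, Hist3h2a and Hist4h4 were among these 12. Within the longer models, the median was 2.80 FPKM with the signal and 4.17 FPKM without it. The longer models also shared less sequence with other members, a median of 28.3% of 75-base windows against 65.5% in the shorter ones. The part of sequence sharing in this difference was not tested.

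**Figure D4:**
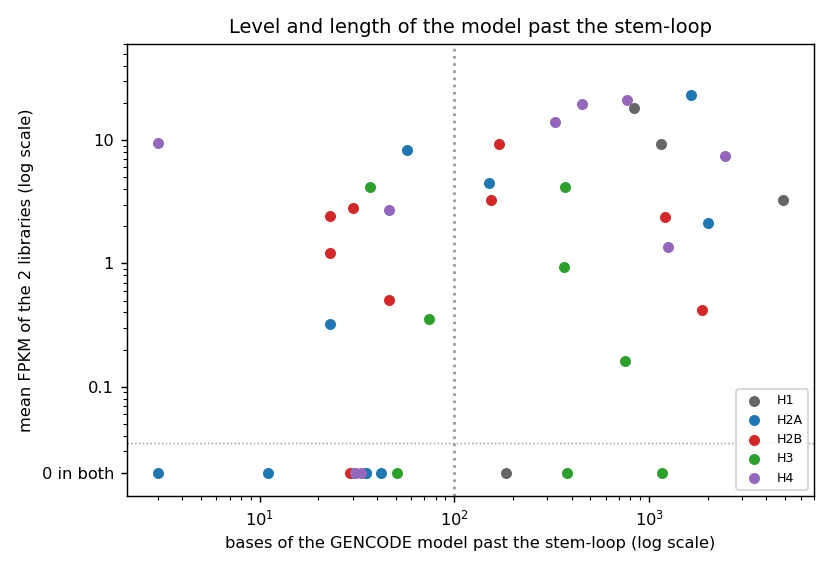
Mean FPKM of the 2 libraries (log scale, genes at 0 in both drawn at the bottom) against the bases of the GENCODE model past the stem-loop (log scale) for the 41 clustered histone genes with a stem-loop, coloured by class. Right of the dotted line at 100 bases, 18 of 21 genes are above 0, and left of it 10 of 20.

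Shared sequence went with low values over all members. Of the 33 genes that share at least 50% of their 75-base windows with another member, 18 were at 0 in both libraries and 8 had a mean of at least 1 FPKM. Of the other 35 genes, 7 were at 0 in both and 20 had a mean of at least 1 FPKM. Of the 9 genes that share at least 90%, 8 were at 0 in both. How the authors' processing divided reads among such copies is not given in the sources used here, so a value of 0 for a single copy is uncertain.

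Histone genes often stand head to head and share the stretch between their starts, and 14 such pairs with starts at most 1000 bases apart were found, 13 of them of H2A with H2B. In 4 pairs both genes had a mean of at least 1 FPKM, and in 4 both were at 0 in both libraries. Hist1h2ae and Hist1h2bg, with starts 176 bases apart, had log2 ratios of lung to spleen of 1.87 and 1.30. Hist2h2ac and Hist2h2be, 239 bases apart, had 0.55 and 0.98, with 1.20 and 2.36 FPKM for Hist2h2be. In these pairs both genes were higher in lung.

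The other 2 pairs went apart. Hist1h2ac and Hist1h2bc start 251 bases apart. Hist1h2ac had 2.42 FPKM in spleen and 1.83 FPKM in lung (about 6.99 and 5.99 reads), a log2 ratio of -0.41, whereas that of Hist1h2bc was 2.63. Hist3h2a and Hist3h2bb-ps start 173 bases apart and had log2 ratios of -0.32 and, with the spleen value set to 0.1 FPKM, 5.31.

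Promoters were read from RefSeq (GRCm38.p6) for 62 of the 68 genes. No entry was used for Hist1h2bc, Hist1h3a, Hist1h3f, Hist2h2be, Hist2h4 and Hist3h2bb-ps. In the 250 bases before the start, 3 motifs were searched separately on both strands, so that matches may overlap. The first was TATAAA, the TATA box. The second was CCAAT, a box common in promoters. The third was the octamer ATTTGCAT, which is known from H2B promoters. The shares were taken over 63 promoters of the members and 32851 promoters in all.

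TATAAA was found in 46.0% of the members' promoters and 12.4% of all promoters, and CCAAT in 82.5% against 33.8%. CCAAT was in every promoter of the H1, H2A and H2B genes but in 3 of the 12 of H4 genes. The octamer was found in 22.2% of the members' promoters and 1.60% of all promoters, in 38.9% of H2A and 41.2% of H2B promoters and in 0 of the H1, H3 and H4 promoters. Paired genes share much of their promoter, so these promoters are not independent.

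The 150 bases before the annotated start of Hist1h2ac, which lie between it and Hist1h2bc, are shown with those of Hist1h2ae, which lie between it and Hist1h2bg, because the partners differed in ratio in the first pair and were alike in the second, and with those of Hist1h4d as the highest H4 gene. They are written 5′ to 3′ on the strand of the named gene, with the motifs in capitals, those on the other strand as their reverse complement.
Hist1h2ac: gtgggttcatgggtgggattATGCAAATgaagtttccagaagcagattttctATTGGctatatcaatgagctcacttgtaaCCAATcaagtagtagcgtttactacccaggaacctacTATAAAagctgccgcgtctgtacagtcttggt
Hist1h2ae: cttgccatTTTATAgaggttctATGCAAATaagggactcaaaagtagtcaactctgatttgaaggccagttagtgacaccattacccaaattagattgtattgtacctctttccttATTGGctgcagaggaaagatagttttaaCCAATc
Hist1h4d: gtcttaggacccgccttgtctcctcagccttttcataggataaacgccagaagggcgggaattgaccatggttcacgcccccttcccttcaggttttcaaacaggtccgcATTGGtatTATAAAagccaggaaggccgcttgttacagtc
They lie at chr13:23683960-23684109 on the minus strand, chr13:23571221-23571370 on the minus strand and chr13:23581418-23581567 on the plus strand. Both paired stretches hold the octamer once, and that of Hist1h4d holds none. Of the 7 H2A genes with the octamer in the promoter, 4 had a mean of at least 1 FPKM, and of the 11 without it 0 did. Of the H2B genes these were 4 of 6 and 4 of 10. Most of the 11 H2A genes without the octamer share the larger part of their sequence windows with other members. Of the 7 with it, Hist1h2ab, Hist1h2ac and Hist1h2ah do so too. The part of this sharing in the H2A difference was not tested.

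The other genes of the histone pathway were described by lists. As background for the counts in this and the next lists, 11.0% of all listed genes were more than 2-fold higher in lung. More than 2-fold lower were 11.7%. Among genes above 0 in both libraries these shares were 16.4% and 13.8%. Cells make the replication-independent variants also outside S phase and mostly from polyadenylated mRNA. Their values ranged from 0 in both libraries (H1fx) to FPKM far above any clustered gene. The part of poly(A) priming in this gap was not tested. The 3 highest were H2afz, H3f3b and H3f3a: H2afz had 762 FPKM in spleen and 1428 FPKM in lung, H3f3b 634 and 818 FPKM, and H3f3a 404 and 580.0 FPKM. Of 11 variants, 1 was more than 2-fold higher in lung and 0 more than 2-fold lower, and their median log2 ratio was 0.48, or 0.05 when rescaled to the same total. The gene more than 2-fold higher was H1f0, a linker histone of resting cells, with 21.3 and 43.7 FPKM, and 0 variants were past 2-fold higher when rescaled to the same total. H3f3b, at a log2 ratio of 0.37, was among the genes whose direction turned with that scaling.

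Of 19 genes for the synthesis and processing of histone mRNA, 1 was more than 2-fold higher in lung and 5 more than 2-fold lower, with a median log2 ratio of -0.24. The 5 lower became 3 with a pseudocount of 1 FPKM. Slbp, which binds the stem-loop, had 71.3 FPKM in spleen and 87.5 FPKM in lung, a log2 ratio of 0.30 that turned negative when rescaled to the same total. Npat, which activates histone genes in S phase, had 5.32 and 3.87 FPKM. Cpsf3, the nuclease that cuts the pre-mRNA, had 70.8 and 67.3 FPKM, and the core processing component Lsm10 had 43.9 and 43.8 FPKM. All 4 thus differed by less than 2-fold. The genes past 2-fold are named here after their values were seen: Mblac1 was higher in lung, at 0.0877 and 4.25 FPKM, and Lsm11, Sympk, Cstf2t, Upf1 and Pou2f1 were lower. Upf1, which takes part in the decay of histone mRNA, had 19.8 and 7.51 FPKM, and the octamer-binding factor Pou2f1 had 3.50 and 1.57 FPKM.

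Of 18 histone chaperones, which carry histones to DNA, 0 were more than 2-fold higher in lung and 3 more than 2-fold lower, with a median log2 ratio of -0.27. The 3 lower became 5 when rescaled to the same total. Their highest genes were Nap1l4, with 149 FPKM in spleen and 118 FPKM in lung, Ssrp1, with 94.2 and 45.3 FPKM, and Nap1l1, with 64.1 and 55.5 FPKM. Ssrp1, a subunit of the FACT complex, was 2.08-fold higher in spleen. The others past 2-fold, named after their values were seen, were Cabin1 with 12.3 and 5.05 FPKM and Hjurp with 3.21 and 0.782 FPKM.

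Cell division was described by DNA replication and mitosis genes, since histone genes are used in S phase. Of 26 DNA replication genes, 2 were more than 2-fold higher in lung and 5 more than 2-fold lower, with a median log2 ratio of -0.05 that was -0.48 when rescaled to the same total and 0.14 among genes with a mean of at least 1 FPKM. The 5 lower became 2 with that minimum or with a floor of 1 FPKM, and 3 with a pseudocount of 1 FPKM or among genes above 0 in both libraries. Pcna, the sliding clamp of DNA polymerase, had 117 FPKM in spleen and 90.3 FPKM in lung. Mcm6 had 78.2 and 89.5 FPKM and Tipin 37.7 and 61.8 FPKM. Past 2-fold, and named after their values were seen, were Cdc45 and Tyms, higher in lung, and Mcm10, Ccne2, Cdc6, Pola1 and Rpa2, lower in lung. The replication genes thus had no common direction.

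Of 17 mitosis genes, 5 were more than 2-fold higher in lung and 3 more than 2-fold lower, with a median log2 ratio of 0.44, or 0.00 when rescaled to the same total. The 5 higher became 3 when rescaled to the same total and 2 with a pseudocount of 1 FPKM, and the 3 lower became 1 among genes above 0 in both libraries. The proliferation marker Mki67 had 2.30 and 3.11 FPKM, Hmgb2 70.4 and 136 FPKM, and Birc5 10.7 and 25.6 FPKM. Past 2-fold, and apart from Birc5 named after their values were seen, were Ccnb1, Bub1, Birc5, Cenpe and Tpx2, higher in lung, and the kinase genes Aurka, Aurkb and Plk1, lower in lung at 0, 0.0486 and 0 FPKM against 2.91, 2.32 and 2.71 FPKM in spleen. Mitosis genes thus went both ways.

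**Figure D5:**
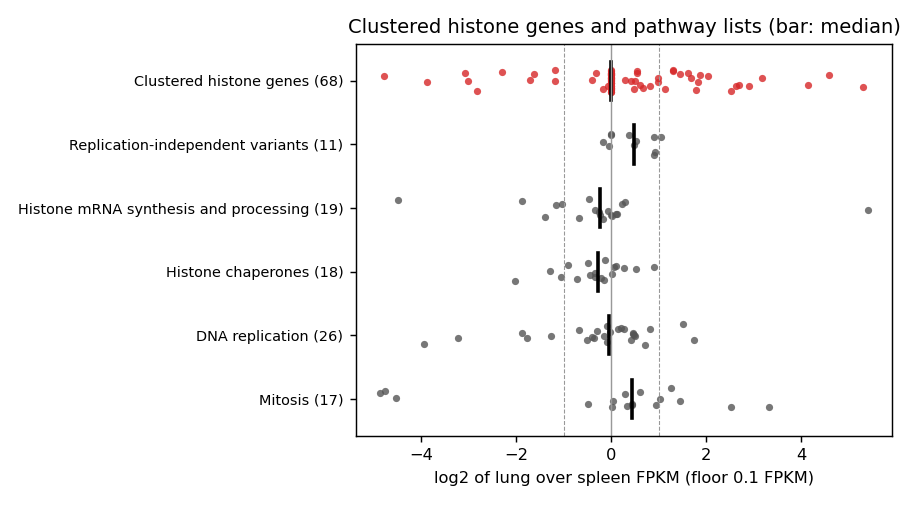
Log2 ratio of lung to spleen FPKM (floor of 0.1 FPKM) for each of the 68 clustered histone genes and for the genes of 5 pathway lists, 1 point a gene, with black bars at the medians and dashed lines at 2-fold. The clustered histone genes reach from -4.78 to 5.31 around a median of 0.00, and the lists have medians between -0.27 and 0.48.

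Markers of other cell types differed between the tissues, and their part in the histone values was not tested. Foxp3 and Cd4, which define the sorted cells, were above 0 in both libraries, at 18.7 FPKM (spleen) and 41.8 FPKM (lung) for Foxp3 and at 195 and 179 FPKM for Cd4. All 10 macrophage markers were higher in lung, where they summed to 27260.2 FPKM against 678 FPKM in spleen. The 6 neutrophil markers listed summed to 478 and 1192 FPKM, the 5 fibroblast markers to 0.290 and 159 FPKM, and the 5 lung epithelium markers to 10.7 and 3122 FPKM. Of the neutrophil markers, 4 were higher in lung and 2 lower, Camp (21.7 and 0 FPKM) and Ngp (36.4 and 0 FPKM). Of the epithelium markers, 4 were higher in lung and Epcam (8.75 and 1.79 FPKM) was lower. Nearly all of their lung sum came from Scgb1a1 (1.48 and 3021 FPKM). All 8 B cell markers were lower in lung (271 and 134 FPKM), as were the 5 exocrine pancreas markers (144 and 0.0620 FPKM). Plasma cell markers summed to 176 and 146 FPKM but went both ways. Jchain (67.5 and 11.4 FPKM) and Mzb1 (21.6 and 4.26 FPKM) were lower in lung. Xbp1 (86.5 and 128 FPKM) and Sdc1 (0.508 and 2.42 FPKM) were higher. Endothelium markers summed to 55.0 and 38.6 FPKM, nearly all from Pecam1 (54.8 and 31.7 FPKM), which immune cells also express, whereas Cldn5 (0.160 and 6.54 FPKM) and Cdh5 (0 and 0.382 FPKM) were higher in lung. At 0 in spleen were Sftpc, Sftpb, Pdgfra, Mgp and Cdh5, and among those at 0 in lung were Camp, Ngp, the erythroid markers Hba-a1, Hba-a2 and Klf1, Kdr, Cela2a, Prss2, Clps and Pnlip.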

How the data were processed

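Bulk RNA-seq of GFP+CD4+ cells was analysed, with 1 library of spleen and 1 of lung assigned from the labels. The authors prepared cDNA with SMART-Seq HT, aligned single-end reads of 75 bases against mm10 by TopHat2 2.1.1, Bowtie2 2.2.8 and SAMtools 0.1.18, and calculated the deposited FPKM with Cuffdiff 2.2.1; the annotation is not given in the sources used here. The FPKM summed to 599633 in spleen and 808853 in lung, and 1 read on an effective length of 1 kb was worth 0.0964 and 0.0849 FPKM. Reads were estimated from FPKM, RefSeq spans of single-exon genes (otherwise GENCODE M21 lengths) and Cuffdiff's default fragment length (mean 200, SD 80). Intervals (95%) were exact conditional binomial for single genes and approximate on a log scale for sums. The FPKM of genes at 0 were bounded with 3 reads.

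The members and all lists were chosen with earlier results of these data known. Named members were the 3 highest of each class, the 5 highest and 5 lowest ratios at a mean of at least 1 FPKM, the Hist2, Hist3 and Hist4 genes, expressed divergent pairs, and any at 0 in 1 library with at least 5 FPKM in the other, of which there were 0; from each list, the 3 highest and Slbp, Npat, Mki67, Pcna, Foxp3, Cd4 and Actb (1325 and 1242 FPKM) were taken. The summed level of the erythroid marker list is not reported here. Floors, pseudocounts, scalings, filters, folds and left-out members were varied. The calculations were tested on simulated data. Software was scipy 1.17.1, pandas 2.3.3, matplotlib 3.10.9 and numpy 2.4.6 under Python 3.11.15.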

Additional observations from a re-analysis of the deposited data

How the results depend on the processing

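Under floors, pseudocounts, scalings, filters and folds, 94 of 129 recalculated counts, medians and sums stayed within their limits. The limits were a fixed fold for counts and an interval for medians and sums. Only a median or summed ratio past 2-fold could be called turned, and none was. Smaller ones did change side: the H2A sum went from 1.06 to 0.785 in TPM. The DNA replication median went from -0.05 to 0.14 with a mean of at least 1 FPKM. With a floor of 0.01 FPKM, 7 members were more than 20-fold lower and 6 higher. With a floor of 1 FPKM, 2 were more than 2-fold lower, and 0 passed 20-fold either way. With a pseudocount of 1 FPKM, 3 were more than 2-fold lower and 11 higher, and 0 passed 20-fold. Rescaled to the same total (TPM), 2 were more than 20-fold lower, the DNA replication median was -0.48 and the mitosis median 0.00, and the summed ratios were 1.40 for all members, 1.13 for H1, 0.785 for H2A, 2.41 for H2B and 1.20 for H4. With a mean of at least 1 FPKM, 3 were more than 2-fold lower and the median log2 ratio was 0.98. Above 0 in both libraries, 4 were more than 2-fold lower, 0 passed 20-fold and the median was 0.74. With values worth under 3 reads raised to 3 reads in each library, 2 of all 68 members were more than 2-fold lower and 14 higher. At that setting 0 passed 20-fold and the median was -0.18, which is the value of 3 reads in both libraries. Over 4-fold were 6 lower and 9 higher. Without the highest member, the ratio of sums was 1.48 for all members, 1.53 for H2A and 1.51 for H2B. TPM with a mean of at least 1 FPKM, added after seeing the data, left 3 more than 2-fold lower and 10 higher, with a median of 0.55. Apart from genes above 0 in both libraries, shares of all listed genes are not available for these settings. No paired analysis was possible because each tissue had 1 library. Without replicates, differences between mice and between tissues cannot be told apart, and 53 of 68 members rested on under 30 reads over both libraries.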
